A study of Homo sapiens with 6 samples.

Results

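Integrin and laminin genes were compared between HS578T cells stably transfected with pcDNA 3 carrying EP300 cDNA (EP300 vector, 3 cultures) and HS578T cells stably transfected with pcDNA 3 alone (empty vector, 3 cultures). Both groups were kept under G418 selection in low-glucose medium with serum and insulin, and each came from a selected pool of clones rather than from 1 clone. HS578T cells are an established line from a human breast cancer and look like mesenchymal cells. The EP300 protein acetylates lysines on histones and other proteins and acts as a co-activator of transcription. The genes were taken by name, not by measured values: 35 integrin and laminin chain genes were listed, and 31 of them had a probe set (a group of array probes read as 1 transcript) that carried their symbol, among 21448 probe sets in all. Each of the 31 had 1 probe set. ITGA1, LAMA3, LAMA5 and LAMB3 were not analysed here.

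Integrins are cell surface receptors made of 1 alpha and 1 beta chain, and the combination sets which matrix protein is bound. Laminins are trimers of an alpha, a beta and a gamma chain that form the sheet-like network of basement membranes, and integrins built on ITGA3, ITGA6 or ITGA7 are their main receptors. In breast tissue the contact of epithelial cells with laminin helps to hold tissue architecture, and mesenchymal tumour cells rely largely on receptors for fibronectin and collagen.

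All levels are the authors' deposited array values, taken as log2 values, so that a difference of 1 is 2-fold. The 6 arrays had medians from 4.456 to 4.497 and lower quartiles from 3.468 to 3.495. No detection calls were used, so the background of a probe set is unknown, and no fold is given for genes that were not above the array median on all 6 arrays. Such genes made up 20 of the 31 members, and the other 11 were above it. Levels of different genes are not set against each other, because each probe set has its own brightness. The label was checked with markers: 8 of 9 mesenchymal markers lay above the array median on all arrays, against 1 of 9 epithelial markers (CLDN7), 0 of 7 leukocyte markers, 0 of 5 platelet markers and 1 of 5 endothelial markers (VWF). The level of EP300 was not analysed here.

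No integrin or laminin gene passed the test. By limma at an adjusted p of 0.05, 0 of the 31 members were called, against 0% of all 21448 probe sets, and the members' adjusted p ran from 0.735 to 0.997. At an unadjusted limma p below 0.05 there were 2 members (6.45%), ITGA8 and ITGA9, both with a higher mean in EP300 vector cultures. The same count over all probe sets was 6.52%, of which 3.45% were higher and 3.07% lower. The 2 groups of arrays did not overlap for 4 members (12.9%), against 12.2% of all probe sets. A difference past 1 on the log2 scale was seen for 1 member, ITGA8 (3.23%), against 0.527% of all probe sets. These shares lie near the background, apart from the last, which rests on a single gene. The median difference of the members was -0.07, with 12 above 0 and 19 below, and the median of all probe sets was 0.00098. The study calls the 3 cultures of a group independent and does not state whether they share 1 pool, so p-values measure the spread between these cultures only.

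**Figure D1:**
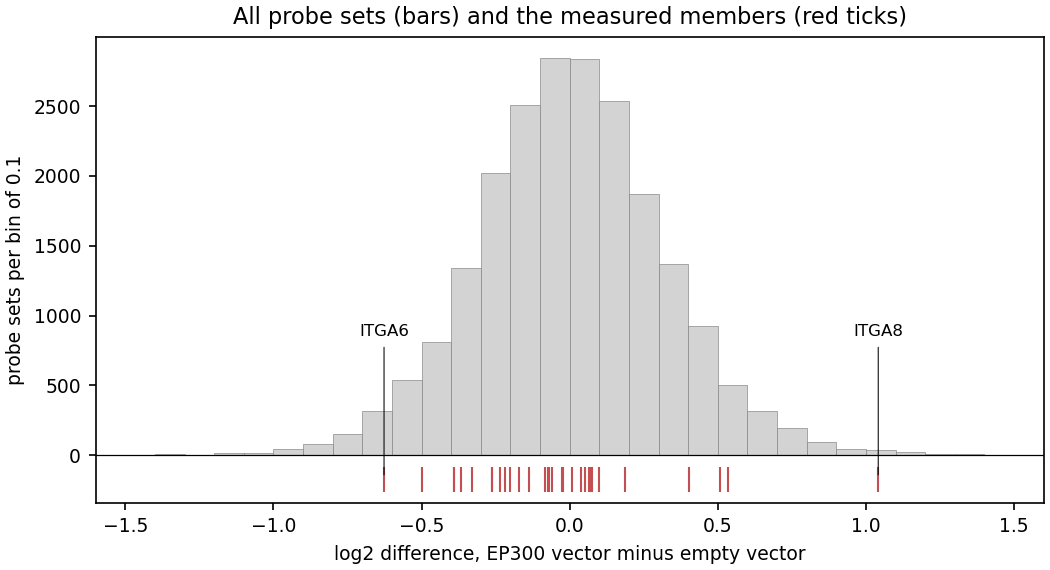
Differences between EP300 vector and empty vector cultures on the log2 scale (horizontal axis) for all probe sets (grey bars, count per bin of 0.1 on the vertical axis) and for the 31 measured members (red ticks below the axis); a few probe sets lie outside the range drawn. The members run from -0.63 for ITGA6 to 1.04 for ITGA8, and ITGA8 is the 1 member that stands in the thin outer tail of the bars.

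The start of each gene with the lowest p and a sequence entry is shown, with that of the shared beta chain for comparison. Co-activators work through factors bound to DNA, near gene starts or far from them, and only the starts are covered. The arrays did not measure these regions. Each sequence runs 5′ to 3′ on the gene's own strand, from 250 bases before to 50 bases after the gene's start, in RefSeq's assembly GRCh38.p14. The ITGA8 region lies on the minus strand at chr10:15719873-15720172, the ITGAV region on the plus strand at chr2:186589806-186590105 and the ITGB1 region on the minus strand at chr10:32958181-32958480. ITGA9 had no entry and is only named. The last 50 bases of each are the first transcribed bases, and capitals mark GC boxes (GGGCGG on either strand).
ITGA8: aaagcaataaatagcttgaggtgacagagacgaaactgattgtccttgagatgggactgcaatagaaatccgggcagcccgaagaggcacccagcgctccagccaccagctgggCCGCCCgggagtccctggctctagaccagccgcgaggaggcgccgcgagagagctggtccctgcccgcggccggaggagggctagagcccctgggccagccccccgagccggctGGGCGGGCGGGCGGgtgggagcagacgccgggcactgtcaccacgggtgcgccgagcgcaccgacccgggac
ITGAV: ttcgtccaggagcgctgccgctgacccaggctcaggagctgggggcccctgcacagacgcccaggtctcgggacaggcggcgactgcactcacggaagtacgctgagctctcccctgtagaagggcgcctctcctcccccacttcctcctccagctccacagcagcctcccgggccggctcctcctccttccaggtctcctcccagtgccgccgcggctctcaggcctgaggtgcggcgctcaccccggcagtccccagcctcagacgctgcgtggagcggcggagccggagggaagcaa
ITGB1: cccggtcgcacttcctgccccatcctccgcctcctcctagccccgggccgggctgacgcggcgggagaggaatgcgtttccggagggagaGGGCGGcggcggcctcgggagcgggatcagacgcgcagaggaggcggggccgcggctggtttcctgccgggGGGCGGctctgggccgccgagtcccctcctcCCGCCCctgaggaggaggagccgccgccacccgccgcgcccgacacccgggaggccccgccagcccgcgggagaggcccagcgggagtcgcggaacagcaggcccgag

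A total of 21 of the 31 members were matched to such a region, and 5 short motifs were searched on both strands. The GC box was found in 11 of the 21 and in 44.6% of 27305 regions of the same length. ITGA8 held 4 copies, of which 3 overlap in 1 stretch, ITGB1 held 3 and ITGAV held 0. The 3 regions printed are 69.3% (ITGA8), 70.7% (ITGAV) and 78.3% (ITGB1) G and C, against a median of 58.3% over all regions. The CCAAT box (CCAAT) was found in 3 of 21 members and 35.7% of all regions, the TATA box (TATAAA) in 1 and 12%, and the AP-1 site (TGANTCA) in 1 and 7.76%. The cAMP response element (TGACGTCA), the site of the factor that gave EP300's paralog CREBBP its name, was found in 0 of 21 members and 1.98% of all regions. A match is a string of letters in a window and is no measure of binding.

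ITGA8 encodes the alpha chain that pairs with the shared beta chain and binds matrix proteins with an arginine-glycine-aspartate (RGD) sequence, such as nephronectin and fibronectin. It read 4.5, 4.40 and 4.93 in EP300 vector cultures, against 3.17, 4.03 and 3.51 in empty vector cultures. The 3 EP300 vector arrays lay above the 3 empty vector arrays, and the groups did not overlap. The difference was 1.04 ± 0.27 (SE) with 95% limits of 0.43 and 1.65 (limma adjusted p = 0.735). Its values ran from under the arrays' lower quartile to just over their median, a range in which the background is unknown. Without 1 array at a time the difference ran from 0.84 to 1.27.

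ITGAV, the alpha chain that joins several beta chains into receptors for vitronectin, fibronectin and latent TGF-beta, was the 1 member above the array median whose groups did not overlap. It read 9.38, 9.59 and 9.32 in EP300 vector cultures and 8.91, 8.62 and 9.24 in empty vector cultures. All EP300 vector values were higher, though the closest pair of arrays lay near each other. The mean was 9.43 ± 0.14 in EP300 vector cultures and 8.92 ± 0.31 in empty vector cultures (SD, n = 3 each), a 1.42-fold difference of 0.51 ± 0.23 (SE), with 95% limits of -0.01 and 1.03 (limma adjusted p = 0.77). ITGA5, which with ITGB1 makes the classical fibronectin receptor, averaged 13.50 ± 0.47 in EP300 vector and 13.43 ± 0.13 in empty vector cultures (SD, n = 3 each). Its difference was 0.07, with a 95% interval from -0.52 to 0.67.

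Over the 8 measured chains of RGD-binding receptors other than ITGB1, 3 differences were above 0 and 5 below, with a median of -0.14. The 3 above 0 were the alpha chains ITGA5, ITGA8 and ITGAV, and the beta chains that pair with ITGAV apart from ITGB1 were all below 0. The alpha chain ITGA2B was below 0 too. The signs of ITGA5, ITGB5 and ITGA2B changed when certain single arrays were left out. ITGB5 averaged 7.47 ± 0.14 in EP300 vector and 7.55 ± 0.36 in empty vector cultures (SD, n = 3 each), a difference of -0.08 with a 95% interval from -0.62 to 0.46. ITGB3, which also pairs with ITGA2B on platelets, read 4.48, 4.48 and 3.93 in EP300 vector cultures and 4.71, 4.96 and 4.40 in empty vector cultures. The groups overlapped, and the difference was -0.39 ± 0.25 (SE, limma adjusted p = 0.836), or -0.21 without the third EP300 vector array. ITGB8, whose receptor releases active TGF-beta from its latent complex, read 2.94, 2.44 and 2.08 in EP300 vector cultures and 3.52, 2.61 and 2.83 in empty vector cultures. All but the first empty vector value lay under the lower quartile, and the groups overlapped, with a difference of -0.50 ± 0.31 (SE, limma adjusted p = 0.828) that was -0.23 without the first empty vector array. ITGB6, an epithelial chain with the same TGF-beta role, read 2.99, 3.27 and 3.12 in EP300 vector cultures and 2.90, 3.70 and 3.50 in empty vector cultures. Its groups overlapped as well, at -0.24 ± 0.25 (SE, limma adjusted p = 0.907), with -0.47 without the first empty vector array and -0.07 without the second. ITGA2B, the platelet alpha chain, differed by -0.20 ± 0.35 (SE).

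**Figure D2:**
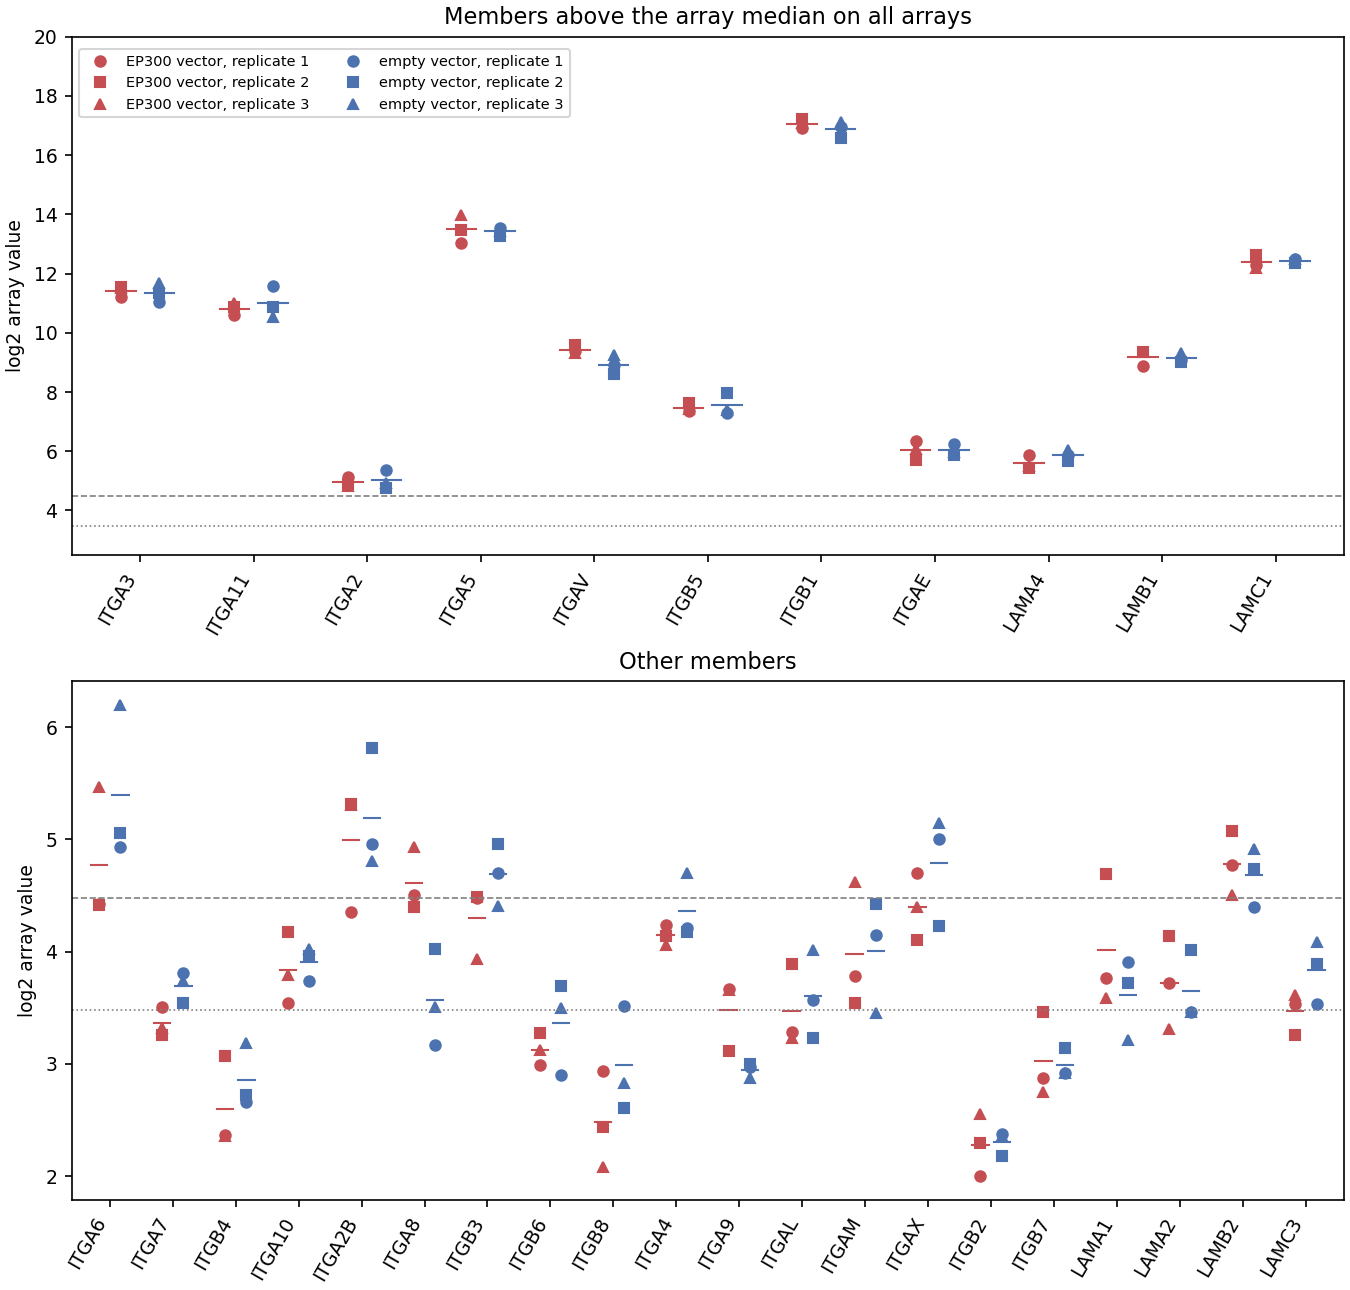
Log2 array values (vertical axis) of each measured member in the 3 EP300 vector cultures (red, left of each pair) and the 3 empty vector cultures (blue, right), with group means as short lines. Symbols give the replicate number, the dashed line is the mean array median and the dotted line the mean lower quartile; the upper panel holds the 11 members above the array median on all arrays, with ITGAV as the 1 whose groups do not overlap, and the lower panel the other 20.

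ITGB1, the beta chain shared by most matrix-binding integrins, read 16.91, 17.22 and 17.08 in EP300 vector cultures and 16.94, 16.58 and 17.14 in empty vector cultures. The groups overlapped over most of their range. The difference was 0.19 ± 0.23 (SE) with a 95% interval from -0.32 to 0.69 (limma adjusted p = 0.92). It was 0.03 without the second empty vector array and 0.31 without the third.

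ITGA9 and ITGA4 form a class of their own whose ligands include tenascin-C, osteopontin and VCAM1. ITGA9 read 3.67, 3.12 and 3.66 in EP300 vector cultures and 2.97, 3.00 and 2.87 in empty vector cultures. Its groups did not overlap, and the empty vector values were close together and all under the lower quartile. The difference was 0.53 ± 0.23 (SE, limma adjusted p = 0.763). ITGA4, better known from leukocytes, read 4.24, 4.14 and 4.06 in EP300 vector cultures and 4.21, 4.18 and 4.70 in empty vector cultures. The groups overlapped, and the difference of -0.22 ± 0.22 (SE) was set largely by the third empty vector array, without which it was -0.05. Among the ligands of this class, VCAM1 differed by 0.75 ± 0.29 (SE), tenascin-C (TNC) by 0.23 ± 0.23 and osteopontin (SPP1) by 0.09 ± 0.28. Other ligands of ITGA4 receptors went the other way, with fibronectin (FN1) at -0.33 ± 0.23 and MADCAM1 at -0.03 ± 0.27 (SE). The FN1 groups did not overlap, those of VCAM1, TNC, SPP1 and MADCAM1 did, and no ligand passed the test. VCAM1 was not above the array median on all arrays. Its difference ran from 0.56 to 1.06 without 1 array at a time.

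Of the 4 laminin-binding chains, 1 was above 0 and 3 below, with a median difference of -0.30. ITGA3, which makes the receptor for laminins of epithelial basement membranes, was the 1 chain of the class above the array median. It averaged 11.43 ± 0.18 in EP300 vector and 11.36 ± 0.33 in empty vector cultures (SD, n = 3 each), and the difference was 0.06 with a 95% interval from -0.47 to 0.60. ITGA6, a laminin receptor chain and a marker of mammary basal and progenitor cells, read 4.42, 4.42 and 5.47 in EP300 vector cultures and 4.94, 5.05 and 6.20 in empty vector cultures. The groups overlapped, because in each group 1 array, the third, stood well above the others. The difference was -0.63 ± 0.39 (SE, 95% interval from -1.51 to 0.26, limma adjusted p = 0.832), and it was -0.23 without the third empty vector array and -0.98 without the third EP300 vector array.

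ITGA7, the laminin receptor chain of muscle, read 3.51, 3.26 and 3.32 in EP300 vector cultures and 3.81, 3.54 and 3.73 in empty vector cultures. All EP300 vector values were lower, by a narrow gap and near the lower quartile. The difference was -0.33 ± 0.21 (SE, limma adjusted p = 0.83). ITGB4, which pairs with ITGA6 in hemidesmosomes, read 2.37, 3.07 and 2.35 in EP300 vector cultures and 2.66, 2.73 and 3.19 in empty vector cultures. It lay below the lower quartile on all 6 arrays, and its groups overlapped (difference -0.26 ± 0.27 SE). Without the second EP300 vector array the difference was -0.50, and without the third empty vector array it was -0.10.

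The 3 measured collagen-binding chains had differences between -0.17 and -0.07. ITGA11, a fibroblast receptor for fibrillar collagen, averaged 10.82 ± 0.20 in EP300 vector and 10.99 ± 0.53 in empty vector cultures (SD, n = 3 each), a difference of -0.17 with a 95% interval from -0.81 to 0.47. Leaving out the first empty vector array turned it to 0.12. ITGA2 differed by -0.07 (95% interval from -0.60 to 0.46) and the cartilage chain ITGA10 by -0.07 (95% interval from -0.59 to 0.46).

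Leukocyte chains, which cells of this kind are not known for, were included as members. ITGB2, the beta chain that all of ITGAL, ITGAM and ITGAX need, lay below the lower quartile on all 6 arrays and averaged 2.28 ± 0.27 in EP300 vector and 2.30 ± 0.11 in empty vector cultures (SD, n = 3 each). ITGB7 lay below it too. ITGAX read 4.70, 4.11 and 4.40 in EP300 vector cultures and 5.0, 4.23 and 5.14 in empty vector cultures, with overlapping groups and a difference of -0.39 ± 0.29 (SE, limma adjusted p = 0.867). Without the second empty vector array it was -0.67, and without the third it was -0.21. ITGAL differed by -0.14 ± 0.28 and ITGAM by -0.02 ± 0.34. ITGAE, which with ITGB7 binds E-cadherin, was the 1 leukocyte chain above the array median and differed by 0.01 (95% interval from -0.53 to 0.55).

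**Figure D3:**
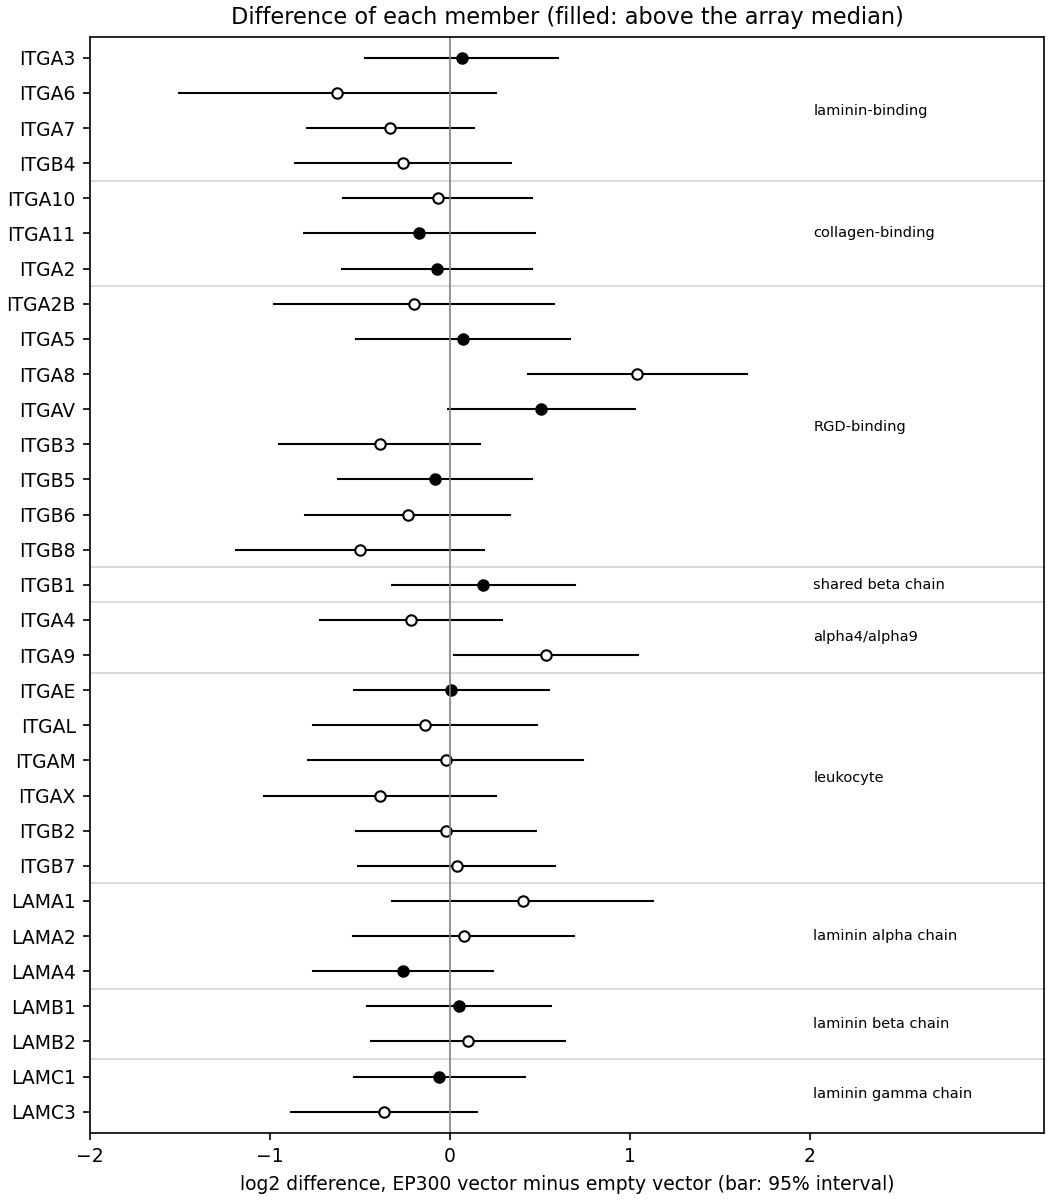
Log2 difference (horizontal axis, EP300 vector minus empty vector) of the 31 measured members, one per line and grouped by ligand class or chain type, with limma's 95% interval as a bar. Filled points are genes above the array median on all arrays; the intervals of ITGA8 and ITGA9 lie above 0, and those of the other 29 hold 0.

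Among laminin chains the 7 measured genes had differences from -0.37 to 0.40. The chains above the array median were LAMA4, LAMB1 and LAMC1, which together can form a laminin of vessel walls and mesenchymal cells. LAMA4 read 5.88, 5.43 and 5.50 in EP300 vector cultures and 5.89, 5.67 and 6.03 in empty vector cultures. The groups overlapped, and the difference was -0.26 ± 0.22 (SE, limma adjusted p = 0.887), or -0.40 without the first EP300 vector array. LAMB1 read 8.87, 9.35 and 9.36 in EP300 vector cultures and 9.07, 9.02 and 9.33 in empty vector cultures. LAMC1, the gamma chain of most laminins, read 12.30, 12.63 and 12.20 in EP300 vector cultures and 12.48, 12.35 and 12.49 in empty vector cultures. Both overlapped nearly fully, with a difference of 0.05 for LAMB1 (95% interval from -0.46 to 0.56) and -0.06 for LAMC1 (95% interval from -0.54 to 0.42).

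The remaining laminin chains were not above the array median on all arrays. LAMA1, the alpha chain of the embryonic laminin, read 3.77, 4.70 and 3.59 in EP300 vector cultures and 3.90, 3.72 and 3.21 in empty vector cultures. Its difference of 0.40 ± 0.32 (SE, limma adjusted p = 0.879) came mainly from the second EP300 vector array, without which it was 0.06, and it was 0.62 without the third. LAMC3 read 3.53, 3.26 and 3.61 in EP300 vector cultures and 3.53, 3.89 and 4.09 in empty vector cultures. The groups met at their edges, with a difference of -0.37 ± 0.23 (SE, limma adjusted p = 0.83) that was -0.24 without the third empty vector array. LAMA2, the alpha chain of muscle laminin, differed by 0.08 ± 0.27, and LAMB2, the beta chain of synaptic and kidney laminin, by 0.10 ± 0.24.

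Set side by side as receptors and ligands, the laminin-binding class had a median difference of -0.30 over 4 chains and the laminin chains one of 0.05 over 7. Among chains above the array median, ITGA3 and ITGB1, which make a laminin receptor, differed by 0.06 and 0.19. The laminin chains LAMB1 and LAMC1 differed by 0.05 and -0.06, and the alpha chain LAMA4 by -0.26. These laminin chains are not a complete ligand of that receptor, as LAMA3 and LAMA5 were not analysed. The 95% interval lay within ±1 on the log2 scale for 24 of the 31 members and for 10 of the 11 above the array median, with ITGAV as the exception.

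The balance of alpha and beta chains was compared within each array for the heterodimers whose chains were both above the array median, which were 6 of 22 measured pairs. A change of this ratio shows unequal change of the chains, not which of them changed. The log2 ratio of ITGAV to ITGB1 was -7.53, -7.63 and -7.76 in EP300 vector cultures and -8.02, -7.97 and -7.90 in empty vector cultures. The log2 ratio of ITGAV to ITGB5 was 2.01, 1.97 and 1.91 in EP300 vector cultures and 1.61, 0.66 and 1.85 in empty vector cultures. For both, the 3 EP300 vector arrays lay above the 3 empty vector arrays, and the second empty vector array was far below the others for ITGB5. The mean difference was 0.32 for ITGAV to ITGB1 and 0.59 for ITGAV to ITGB5. A two-sided exact permutation test gave p = 0.1 for each, the smallest that 3 against 3 allows, and 0.3 after adjustment over the 6 ratios. The 2 ratios share ITGAV, whose own groups did not overlap, so they are not separate results. Its ratios to ITGB3, ITGB6 and ITGB8, chains not above the array median on all arrays, did not overlap either. The share of non-overlapping ratios among other pairs of probe sets was not computed. The ITGAV to ITGB5 value was 0.23 without the second empty vector array and 0.83 without the third. Ratios to ITGB1 differed by -0.36 for ITGA11, -0.26 for ITGA2, -0.12 for ITGA3 and -0.11 for ITGA5, each with overlapping groups (exact permutation p from 0.4 to 0.8).

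**Figure D4:**
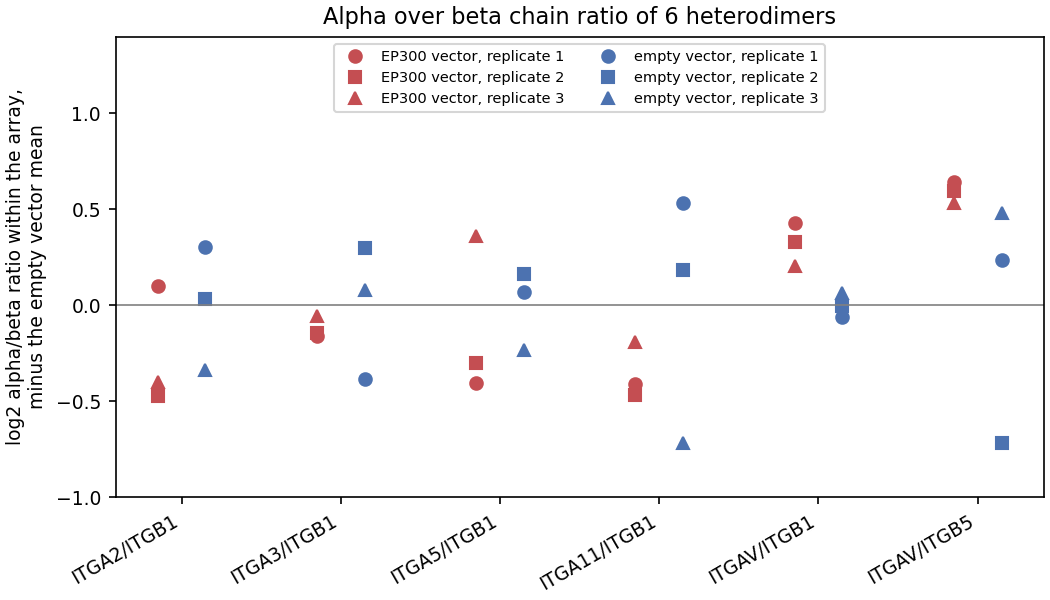
Log2 ratio of alpha to beta chain within each array, minus the mean of the empty vector arrays (vertical axis), for 6 heterodimers with both chains above the array median; EP300 vector cultures are red and to the left, empty vector cultures blue and to the right, with symbols for the replicate number. The EP300 vector points lie above the empty vector points for the ITGAV pairs with ITGB1 and ITGB5, and the groups overlap for the other 4.

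Other genes of cell-matrix adhesion were taken from 4 fixed lists with 97 measured genes. By limma 0 of the 97 passed at an adjusted p of 0.05. At an unadjusted limma p below 0.05 there were 8 (8.25%), 2 higher and 6 lower in EP300 vector cultures, against 6.52% of all probe sets. The median difference over the 97 genes was -0.0018.

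Of 20 basement membrane partners of laminins, 10 were above 0 and 10 below. HSPG2, which encodes perlecan, a heparan sulfate proteoglycan that binds laminin networks, read 4.91, 5.44 and 4.87 in EP300 vector cultures and 5.72, 5.84 and 5.91 in empty vector cultures. The groups did not overlap, and the 1.68-fold difference was -0.75 ± 0.23 (SE, limma adjusted p = 0.735). COL4A1, a chain of the network-forming collagen of basement membranes, differed by -0.44 ± 0.29 (SE), and by -0.11 without the second empty vector array. COL4A4, a dim chain of the same family, differed by 0.45 ± 0.24, and by 0.29 without the third EP300 vector array.

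Tetraspanins are membrane proteins that hold integrins in clusters. CD81 read 9.61, 9.81 and 9.46 in EP300 vector cultures and 10.66, 10.31 and 10.68 in empty vector cultures. All EP300 vector values were lower, by more than the spread within either group, and the 1.9-fold difference was -0.93 ± 0.22 (SE, limma adjusted p = 0.735). CD151, the tetraspanin bound to the laminin receptors ITGA3 and ITGA6, averaged 9.92 ± 0.03 in EP300 vector and 10.42 ± 0.30 in empty vector cultures (SD, n = 3 each). Its groups did not overlap, with a difference of -0.49 ± 0.22 (SE, limma adjusted p = 0.768). PLEC, the plectin that links hemidesmosomes to keratin, differed by -0.34 ± 0.21. The list of 8 tetraspanins and hemidesmosome partners had a median of -0.09, with 4 above 0 and 4 below.

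Of 40 adaptors and signalling proteins that act on the inner side of integrins, 17 were above 0 and 23 below, with a median of -0.05. FERMT1, a kindlin that activates beta chains, read 6.64, 7.11 and 6.74 in EP300 vector cultures and 7.48, 7.24 and 7.35 in empty vector cultures. The groups did not overlap (difference -0.53 ± 0.22 SE, limma adjusted p = 0.755). ITGB1BP1, an inhibitor that binds the tail of ITGB1, differed by -0.59 ± 0.28, and by -0.90 without the first empty vector array. FERMT3, the blood cell kindlin, differed by -0.43 ± 0.22 at a dim level. Among 29 other integrin ligands, 16 were above 0 and 13 below, with a median of 0.02. At an unadjusted limma p below 0.05 there were 5 (17.2%), against 6.52% of all probe sets. Each other list held 1, which was 5% of 20 basement membrane partners, 2.5% of 40 adaptors and 12.5% of 8 tetraspanins and hemidesmosome partners. Groups did not overlap for 6 ligands (20.7%), 2 higher and 4 lower, against 12.2% of all probe sets. The 3 with the smallest p were FGG, a fibrinogen chain, at -0.78 ± 0.23, VCAM1 at 0.75 ± 0.29 and ICAM3 at 0.55 ± 0.23 (SE). ICAM3 is a ligand of ITGAL with ITGB2. These 3 were not above the array median on all arrays. CCN2 at -0.50 ± 0.22 and COL1A2 at -0.49 ± 0.22 (SE) were above it, and their groups did not overlap. THBS1 was above it too, and its groups did not overlap in the other direction, at 0.35 ± 0.21 (SE).

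**Figure D5:**
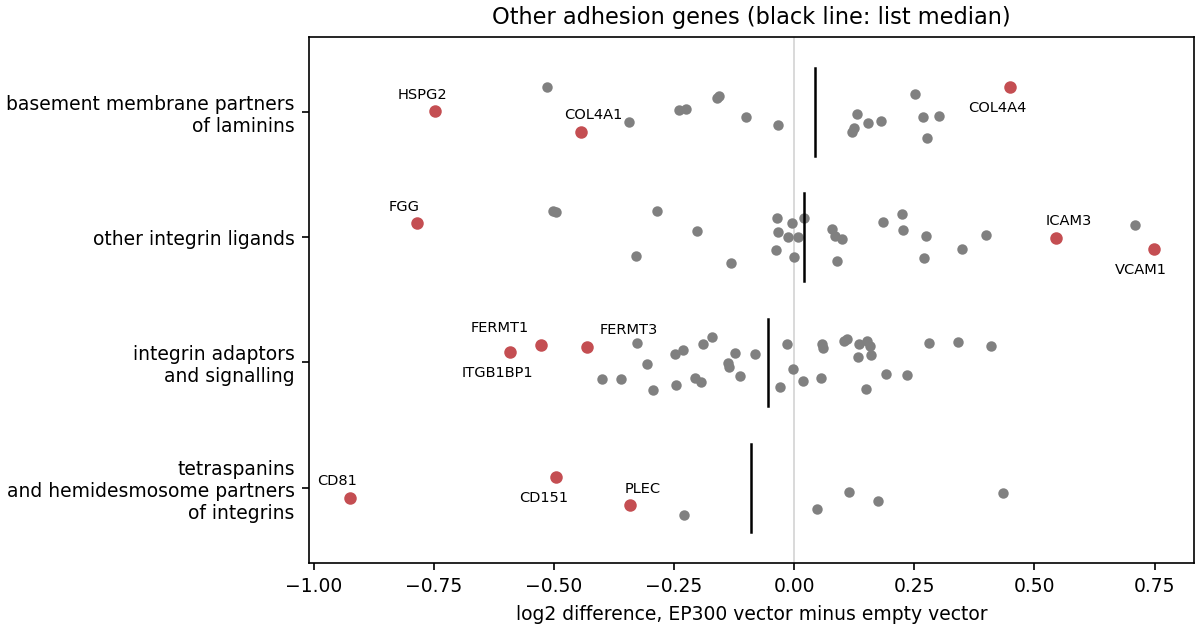
Log2 difference (horizontal axis, EP300 vector minus empty vector) of the measured genes of 4 adhesion lists (rows; vertical scatter within a row has no meaning), with the list median as a black line and the 3 genes with the smallest p in each list in red. The list medians lie between -0.09 and 0.04, and CD81 lies furthest from 0 at -0.93.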

How the data were processed

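Per the labels' protocols, total RNA came from 6 HS578T cultures by Qiagen RNeasy extraction, and WT PLUS reagents (Affymetrix GeneChip) served for labelling. The authors' deposited values, 1 per probe set and array, were taken as log2 values, a scale inferred from the values themselves. Per the submitters' processing notes Partek 6.6 was used. How background was corrected and arrays were normalized is not given in the sources used here. GEO's platform annotation gave 1 symbol for 17709 probe sets and none for 3739. The number of arrays limits the precision.

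EP300 vector was compared with empty vector (3 arrays each) with limma 3.58.1 (lmFit and eBayes in R 4.3.3), unfiltered, with Benjamini-Hochberg adjustment over all 21448 probe sets. The fit was checked on simulated data with a shift larger than the difference of any member. That check does not show whether differences of the members' size would be called. Alternatives covered normalization, level filter, probe sets tested, variance model, replicate block and each array left out. Deviations of same-numbered arrays from their group means correlated at -0.00153, -0.00528 and -0.00893, so numbers were not taken to pair cultures. Ratios were tested by exact permutation.

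The members, lists and rules were chosen with earlier results of these data known. Every member is named. The 14 with the smallest p and the chains ITGB1, ITGAV, LAMB1 and LAMC1 are given array by array, and each adhesion list by its 3 smallest p. TNC, SPP1, FN1, MADCAM1, CCN2, COL1A2 and THBS1 were named as ligands after their values were seen.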

Additional observations from a re-analysis of the deposited data

How the results depend on the processing

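Under 12 alternatives 0 members passed the adjusted threshold, and the lowest adjusted p of a member was 0.593. The sign was kept for 15 members: for ITGAV, ITGA6, ITGB1, ITGAX, ITGB3 and LAMA4 under all 12, and for ITGA8, ITGA9 and 7 others under 11, as these were not tested among probe sets above the median level. It changed for the other 16 when 1 array was left out, with ranges of -0.239 to 0.0797 for ITGA10, -0.405 to 0.119 for ITGA11, -0.207 to 0.105 for ITGA2, -0.395 to 0.119 for ITGA2B, -0.102 to 0.23 for ITGA3, -0.171 to 0.298 for ITGA5, -0.154 to 0.181 for ITGAE, -0.347 to 0.0676 for ITGAL, -0.345 to 0.196 for ITGAM, -0.157 to 0.117 for ITGB2, -0.205 to 0.123 for ITGB5, -0.18 to 0.176 for ITGB7, -0.132 to 0.282 for LAMA2, -0.0316 to 0.214 for LAMB1, -0.0482 to 0.241 for LAMB2 and -0.184 to 0.027 for LAMC1. ITGAE also changed sign when arrays were quantile normalized (-0.00386). Among probe sets above the median level, which hold 16 members, 1 member had an unadjusted p below 0.05, 1 had groups that did not overlap, and 848 probe sets had an unadjusted p below 0.05, against 1399 of all, since fewer were tested. With a variance trend and robust estimation 4 probe sets passed, none of them a member, and the cause was not tested. With the replicate block 5 other adhesion genes had an unadjusted p below 0.05, against 8 without it, and the block changed no call of a member. Without 1 array, members at an unadjusted p below 0.05 numbered 1 to 2, and other adhesion genes at that level 4 to 9. Members whose groups did not overlap then numbered 5 to 8. Groups of fewer arrays separate more easily, and the matching share of all probe sets under the alternatives is not given here. An alternative probe set per gene was not run, because each member had 1. Low signal limits the 20 members that were not above the array median.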
